A study of Mus musculus with 2 samples.

Results

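The 7 genes of the reelin pathway described here, Reln, Dab1, Lrp8, Vldlr, Cdk5, Cdk5r1 and Pafah1b1, were compared between 2 teratoma libraries. They were taken by gene symbol from the 45777 genes of the deposited mm10 expression table, and all 7 were found, each in 1 row. One library came from a teratoma of wild-type E14 cells, a mouse ESC line, and the other from a teratoma of E14-Sox2TA/WT cells, in which the T258A mutation (threonine 258 of Sox2 replaced by alanine) had been introduced into 1 allele with CRISPR/Cas9 and clones had been grown from single cells. Both ESC lines were inoculated subcutaneously into BALB/c-nu mice, which lack a thymus, and the teratomas were harvested on day 14. Whether a library holds 1 teratoma or several, and whether the mutant cells were 1 clone or more, is not given in the sources used here. Teratoma is the tissue given in the labels, but the extraction text there mentions only the ESC line. The comparison addresses how the transcripts of the reelin pathway stood in the mutant-derived tumor. With 1 library per group there is no replicate check, no test was possible, and every difference below is between 2 libraries and not between conditions.

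Reelin is a large secreted glycoprotein that guides the placement of migrating neurons in the developing brain, and it is made there by Cajal-Retzius cells at the brain surface and later by interneurons. It binds 2 receptors of the LDL receptor family, ApoER2 (encoded by Lrp8) and the VLDL receptor (Vldlr), whose cytoplasmic tails hold the adaptor Dab1. Clustering of the receptors lets Src family kinases phosphorylate Dab1 on tyrosine, which passes the signal to the cytoskeleton. The kinase Cdk5 with its activator p35 (Cdk5r1), and the dynein regulator Lis1 (Pafah1b1), act in the same layering of the cortex, Cdk5 largely in parallel to reelin.

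The site where Dab1 docks is a short stretch of the receptor tail, and its coding sequence is shown because it is what the 2 reelin receptors share with a relative that is described below. A search of the coding sequence in GENCODE M21 transcripts (GRCm38) for in-frame codons of asparagine, proline, valine and tyrosine gave 1 match in each of the 3 genes shown. The capitals mark these 4 codons, and 24 bases stand on either side.
Lrp8: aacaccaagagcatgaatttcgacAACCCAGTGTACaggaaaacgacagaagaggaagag
Vldlr: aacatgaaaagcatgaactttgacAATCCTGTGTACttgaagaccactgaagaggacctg
Lrp1: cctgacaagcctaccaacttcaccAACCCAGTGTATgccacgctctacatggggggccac
The capitals lie at chr4:107869061-107869072 on the plus strand for Lrp8, in exon 17 of 19, and at chr19:27247940-27247951 on the plus strand for Vldlr, in exon 18 of 19. For Lrp1, an endocytic relative, they lie at chr10:127539064-127539075 on the minus strand, in exon 89 of 89. Of the 60 bases shown, Vldlr shared 45 with Lrp8 and Lrp1 shared 27. The docking codons are thus not particular to the reelin receptors.

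All 7 genes had a lower TPM in the E14-Sox2TA/WT teratoma, but by very different amounts. Cdk5r1 was 11.9-fold lower and Lrp8 4.26-fold lower. Cdk5, Reln, Vldlr and Dab1 were between 2.16-fold and 1.89-fold lower, and Pafah1b1 was 1.18-fold lower. By the 2-fold rule of the study's methods, as applied here to the deposited TPM (more than 2-fold apart, and TPM not below 10 in both libraries), 4 genes passed as lower (Lrp8, Vldlr, Cdk5 and Cdk5r1), 0 passed as higher, and Dab1 and Pafah1b1 did not pass. Reln did not reach a TPM of 10 and so was not covered by the rule. Over the whole table, 18.7% of the 11578 genes covered were lower past 2-fold and 10.8% were higher. The median log2 ratio of the 7 genes, with 1 added to each TPM, was -0.96, beside -0.06 over the 18558 genes that reached a TPM of 1 in either library. In these whole-tumor libraries, fewer cells of a type and less RNA per cell cannot be told apart.

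**Figure D1:**
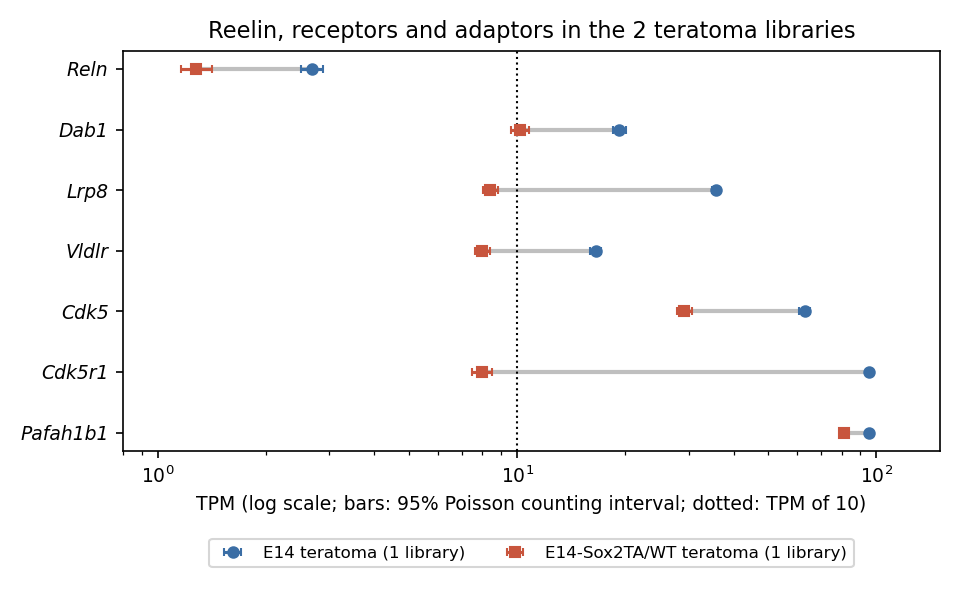
TPM of each of the 7 genes (log axis) in the E14 library (circles) and the E14-Sox2TA/WT library (squares), joined by a line. Bars are 95% Poisson counting intervals and the dotted line marks a TPM of 10. Cdk5r1 has the longest line, from 95.5 to 7.99, and Pafah1b1 the shortest, from 95.6 to 81.1.

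The ligand was the least abundant of the 7 transcripts in both libraries. Reln lies on the minus strand of chromosome 5 (RefSeq, GRCm38, from 21884454 to 22344705), and its main transcript in GENCODE M21 has 65 exons and 11699 nt. It had 756 reads in the E14 teratoma and 403 in the E14-Sox2TA/WT teratoma, or a TPM of 2.68 and 1.28. The mutant-derived level was 47.6% of the E14 level (95% counting interval 42.1 to 53.8). Among the proteases that cut reelin and the other ligands of its receptors, 5 of 10 genes were covered by the rule, of which 1 was lower past 2-fold and 0 were higher, and the list median of the log2 ratio was 0.08. The gene lower past 2-fold was Clu, which encodes clusterin, a secreted chaperone that also binds these receptors, at a TPM of 247 and 117. Apoe, a lipid carrier and ligand of the LDL receptor family, was the most abundant, at 1261 and 1315. Plat, encoding the protease tPA, was at 130 and 74.1, and Thbs1, encoding thrombospondin 1, was at 8.58 in E14 and 1.98-fold higher in the other library. By FPKM, Clu was 1.84-fold lower and did not pass, while Thbs1 was 2.28-fold higher and passed. The ligands other than reelin therefore did not share one direction.

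The 2 reelin receptors differed from each other. Lrp8, on the plus strand of chromosome 4 from 107802200 to 107876840, had 6473 reads in the E14 teratoma and 1702 in the E14-Sox2TA/WT teratoma, with a TPM of 35.8 and 8.40. It was 4.26-fold lower (4.04 to 4.49), and 4.78% of the genes covered by the rule had a lower ratio. Vldlr, on the plus strand of chromosome 19 from 27216480 to 27254231, had 3302 and 1784 reads, with a TPM of 16.5 and 7.99. It was 2.07-fold lower (1.95 to 2.19), so its counting interval held the 2-fold threshold. Within a library the ratio of 2 genes does not depend on how libraries are scaled to each other. The ratio of Lrp8 to Vldlr was 2.16 for E14 and 1.05 for E14-Sox2TA/WT, 2.06-fold lower (1.90 to 2.23), so ApoER2 transcripts went from the clearly more abundant to about level with those of the VLDL receptor.

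Among 12 other genes of the LDL receptor family, 10 were covered by the rule, 2 were lower past 2-fold and 0 were higher (median log2 ratio -0.46). Those lower were Lrp1, an endocytic receptor with many ligands, at a TPM of 59.7 and 19.6, and Lrp3, at 47.2 and 17.5. Lrp10 was level, at 36.1 and 36.2. Of the genes shown with the docking codons, Lrp8 and Lrp1 were thus lower by more than Vldlr. In the list of co-receptors, which holds ephrins, integrins, amyloid precursor family genes and Cdh2, all 9 genes were covered, 2 were lower past 2-fold and 0 were higher, with a median of -0.55. Aplp1, a neuronal relative of the amyloid precursor, was at 338 and 65.6, and Cdh2, encoding N-cadherin, at 93.4 and 39.5. App was at 261 and 157, and Itgb1, the integrin beta 1 subunit, at 278 and 198.

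Dab1, the adaptor that carries the signal inward, was lower by about as much as Vldlr, with overlapping counting intervals, and by less than Lrp8. It spans 103619500 to 104744844 on the plus strand of chromosome 4, had 2209 reads in the E14 teratoma and 1246 in the E14-Sox2TA/WT teratoma, and had a TPM of 19.3 and 10.2. It was 1.89-fold lower (1.76 to 2.03), short of the 2-fold rule. The ratio of Reln to Dab1 was 0.139 and 0.126 in the 2 libraries, and the counting interval of the difference, 0.965-fold to 1.28-fold lower, held 1. Ligand and adaptor were therefore not distinguishable in their difference at this depth, whereas the ratio of Lrp8 to Dab1 was 2.25-fold lower (2.06 to 2.46). Dab2, the other mouse relative of Drosophila disabled and an endocytic adaptor, went the opposite way, from 1454 reads to 11595 and from a TPM of 14.1 to 105, 7.47-fold higher. In the E14 library Dab1 was 1.37 times as abundant as Dab2, and in the E14-Sox2TA/WT library Dab2 was 10.3 times as abundant as Dab1.

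Among 11 adaptors with a phosphotyrosine-binding domain like that of Dab1, 9 were covered by the rule. Of these, 4 were lower past 2-fold, 2 were higher and 3 did not pass, with a median log2 ratio of -0.38. Mapk8ip1 and Mapk8ip2, JNK scaffolds of neurons and endocrine cells, were at a TPM of 105 and 30.8 and of 41.1 and 8.22. Apbb1, encoding the adaptor Fe65 that binds the amyloid precursor, was at 116 and 35.9, and Numbl, encoding a Notch-related adaptor of neural progenitors, at 61.3 and 18.8. Dab2 was among the 2 higher genes. Numbl was chosen after its values were seen. The list thus held large differences in both directions.

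Below Dab1, 22 kinases and effectors were listed and all were covered by the rule. Of these, 8 were lower past 2-fold, 2 were higher and 12 did not pass, with a median of -0.35. Fyn, the main Src family kinase acting on Dab1, was 3.27-fold lower, with 8219 and 2999 reads and a TPM of 94.8 and 29.0. The other Src family members of the list, named after their values were seen, were Src at a TPM of 53.9 and 25.3, and Yes1 at 17.9 and 29.7. The ratio of Fyn to Yes1 was 5.29 for E14 and 0.976 for E14-Sox2TA/WT. Akt1, a kinase downstream of PI3K, was at 209 and 114, and Cfl1, encoding the actin-severing protein cofilin, at 2163 and 1780. Rnf7, a subunit of the ubiquitin ligase that removes activated Dab1, was at 205 and 214. The 2 higher genes, also named after their values were seen, were Rap1b, a small GTPase downstream of Crk, at 72.0 and 164, and Socs6, an adaptor of that ubiquitin ligase, at 6.85 and 15.1. Socs7, a relative of Socs6 named in the same way, was lower past 2-fold, at 23.0 and 8.92.

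The kinase Cdk5 and its activator p35 differed by unequal amounts. Cdk5, on the minus strand of chromosome 5 from 24407597 to 24423587, had 3180 reads in the E14 teratoma and 1605 in the E14-Sox2TA/WT teratoma, with a TPM of 63.2 and 29.2. It was 2.16-fold lower (2.04 to 2.30). Cdk5r1, a gene of 1 exon on the plus strand of chromosome 11 from 80477023 to 80481184, had 9561 reads and 894, with a TPM of 95.5 and 7.99. It was 11.9-fold lower (11.2 to 12.8), and of the 11578 genes covered by the rule 63 had a lower ratio. The ratio of the activator to the kinase was 1.51 for E14 and 0.274 for E14-Sox2TA/WT, 5.52-fold lower (5.04 to 6.04).

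The other activator, p39, encoded by Cdk5r2, was also lower, with 2129 and 386 reads and a TPM of 32.7 and 5.31, 6.16-fold lower. Relative to Cdk5, Cdk5r2 was 2.85-fold lower (2.51 to 3.22), so both activators stood lower than the kinase they switch on. Among 10 genes for Cdk5 activators, Cdk5-binding proteins and related kinases, 7 were covered by the rule, 3 were lower past 2-fold and 0 were higher, with a median of -0.65. Beside Cdk5r2 the lower genes were Cables2, encoding a Cdk-binding protein, at 28.8 and 10.9, and the related kinase Cdk14, at 23.7 and 10.7. Cdk14 was named after its values were seen. The related kinases Cdk16 and Cdk17 did not pass, at 99.99 and 66.8 and at 27.7 and 23.8. Cdk5rap3 was at 54.8 and 39.3. Of 13 genes that encode substrates of Cdk5, 12 were covered, 7 were lower past 2-fold and 0 were higher, with a median of -0.98. The microtubule-associated proteins Mapt (tau), at 265 and 18.2, and Map1b, at 194 and 41.4, were among them, as was Stmn1, a tubulin-binding protein of neural progenitors and neurons, at 1298 and 515.

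**Figure D2:**
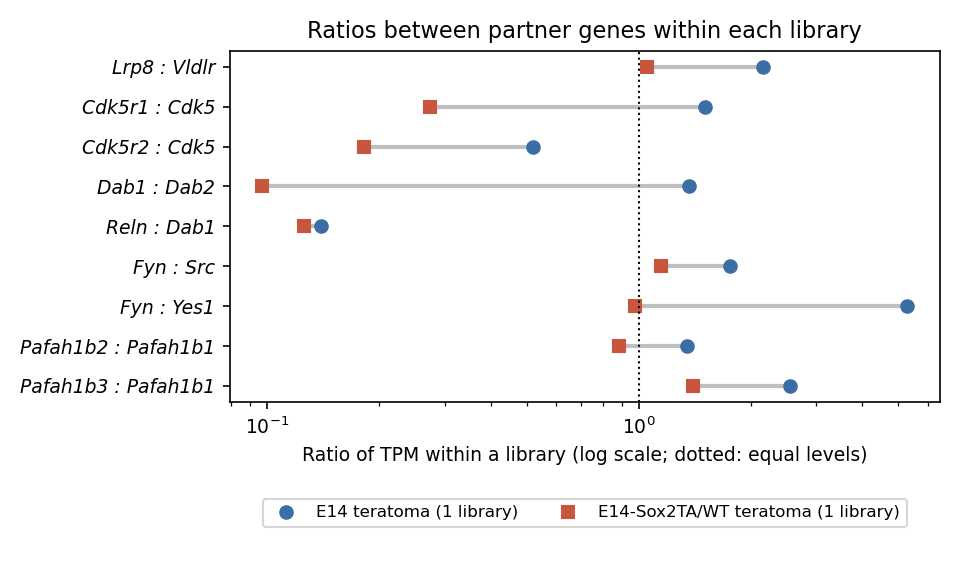
Ratio of TPM between partner genes within each library (log axis), in the E14 library (circles) and the E14-Sox2TA/WT library (squares). The dotted line marks equal levels. Cdk5r1 against Cdk5 goes from 1.51 to 0.274 and Dab1 against Dab2 from 1.37 to 0.0968, while Reln against Dab1 stays near 0.13.

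Pafah1b1, encoding Lis1, stood nearly level between the libraries. It lies on the minus strand of chromosome 11 from 74673949 to 74724384 and had 12754 reads in the E14 teratoma and 12189 in the E14-Sox2TA/WT teratoma, with a TPM of 95.6 and 81.1. It was 1.18-fold lower (1.15 to 1.21), and 1.03-fold lower by FPKM. The catalytic partners of Lis1 in the platelet-activating factor acetylhydrolase complex, named after their values were seen, differed more between the libraries than Lis1 itself. Pafah1b2 was at 129 and 71.8, 1.52-fold lower relative to Pafah1b1 (1.46 to 1.58), and Pafah1b3 was at 244 and 114, 1.82-fold lower relative to Pafah1b1 (1.73 to 1.91). Among 22 genes for Lis1 partners, dynein and dynactin, 21 were covered by the rule, 10 were lower past 2-fold and 0 were higher, with a median of -0.80. Dcx, the microtubule-binding doublecortin of migrating neurons, was at 92.9 and 13.1, and its relative Dclk1 at 70.4 and 19.8. Tuba1a, the main alpha-tubulin of young neurons, was at 5855 and 1799, Ywhae, a 14-3-3 protein that binds the Lis1 partner Ndel1, at 886 and 757, and Dynll1, a dynein light chain, at 275 and 414. Dcx, Dclk1 and Tuba1a thus differed by several-fold, while Lis1, Ywhae and Dynll1 stayed within the 2-fold rule. Other dynein and dynactin genes, named after their values were seen, lay on both sides of the rule. Dync1h1, the dynein heavy chain, was at 115 and 36.6 and Dctn1 at 84.8 and 40.8, both lower past 2-fold. Dync1i2, at 167 and 117, and Dctn2, at 234 and 158, did not pass.

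Over the 8 lists around the 7 genes, 94 of 108 genes were covered by the rule, and 37 of them, or 39.4%, were lower past 2-fold, beside 18.7% of all genes covered. Higher past 2-fold were 4 genes, or 4.26%, beside 10.8%. The lists were assembled by hand with earlier results of these libraries known.

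**Figure D3:**
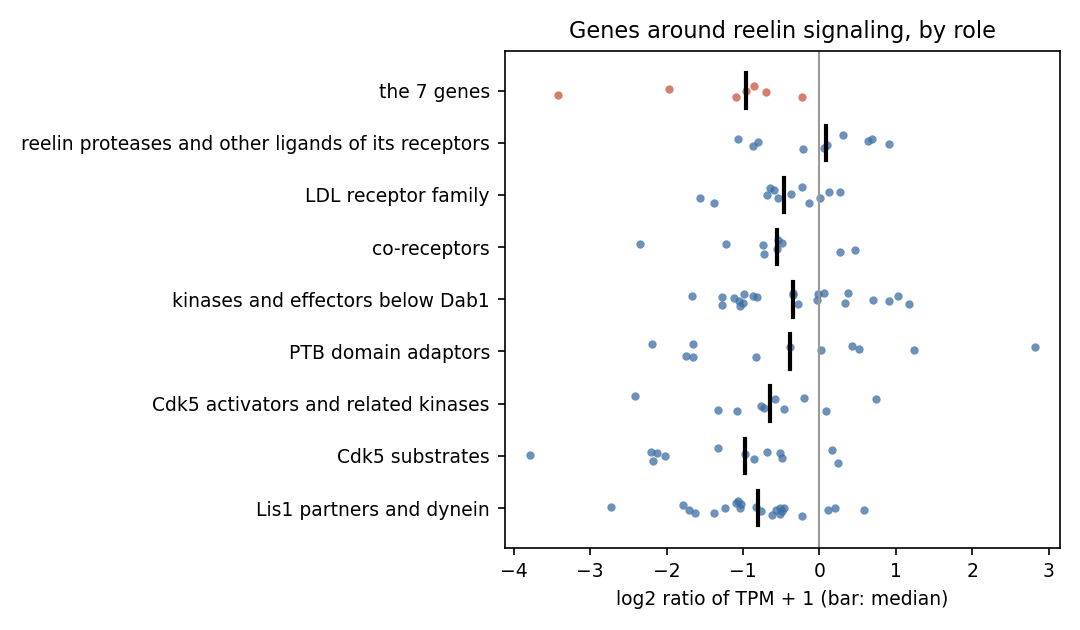
Difference of each gene between the libraries, as the log2 ratio of TPM + 1 of the E14-Sox2TA/WT library over the E14 library, for the 7 genes and for 8 lists grouped by role. Each point is 1 gene that reached a TPM of 1 in either library, and black bars are medians, which run from -0.98 for Cdk5 substrates to 0.08 for proteases and other ligands. Dab2 is the point farthest to the right among the PTB domain adaptors.

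The order of the levels changed between the libraries. In the E14 library the TPM ran from Pafah1b1 and Cdk5r1, whose counting intervals overlapped (93.9 to 97.3 and 93.6 to 97.4), through Cdk5, Lrp8, Dab1 and Vldlr to Reln. In the E14-Sox2TA/WT library it ran from Pafah1b1 through Cdk5 and Dab1 to Lrp8, Vldlr and Cdk5r1, and Reln was again last. There the intervals of Lrp8 (8.01 to 8.81), Vldlr (7.63 to 8.37) and Cdk5r1 (7.48 to 8.53) overlapped. Cdk5r1 thus moved from beside the most abundant of the 7 transcripts to the level of the receptors.

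How many of the 7 genes lay past 2-fold depended on the scaling of the libraries. TPM ratios were 0.871 times FPKM ratios throughout, and the mitochondrial share of TPM was 5.17% for E14 and 9.70% for E14-Sox2TA/WT. By FPKM, and by reads scaled with library totals, only Lrp8 and Cdk5r1 were lower past 2-fold, beside 14.3% and 14.1% of all genes covered. Cdk5 was 1.89-fold and Vldlr 1.80-fold lower by FPKM. With TMM and with median-of-ratios factors, Lrp8, Cdk5 and Cdk5r1 passed, beside 17.0% and 16.9% of all genes. Cdk5r1 was at least 10.4-fold and Lrp8 at least 3.69-fold lower under all 5 scalings, and in the E14-Sox2TA/WT library each of the 7 genes was below its E14 level under each of them. For Pafah1b1 the difference was only 1.02-fold with library totals and 1.03-fold by FPKM, which is about level.

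**Figure D4:**
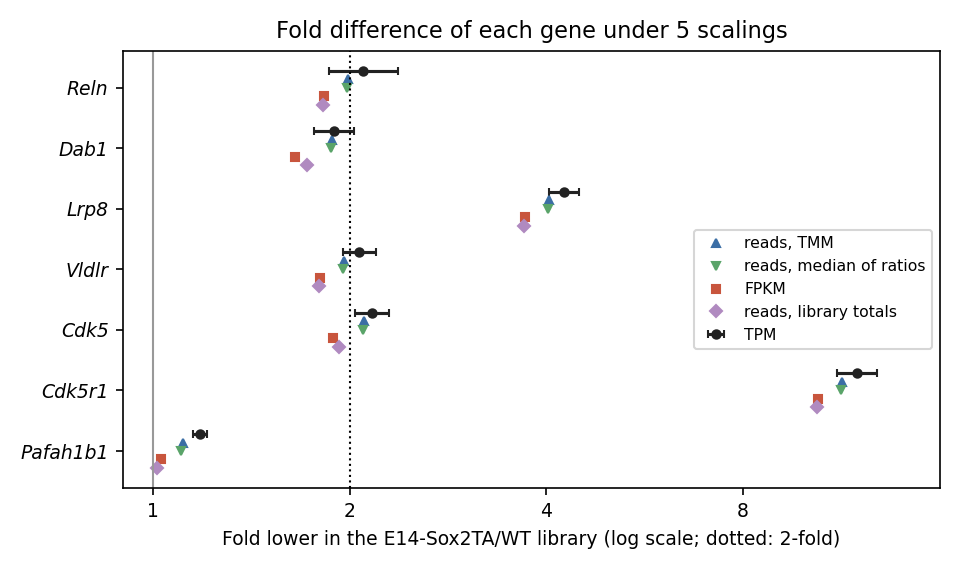
Fold by which each of the 7 genes was lower in the E14-Sox2TA/WT library (log axis) under 5 scalings of the same files. Bars on the TPM points are 95% Clopper-Pearson counting intervals, and the dotted line marks 2-fold. Lrp8 and Cdk5r1 lie beyond 2-fold under every scaling, while Cdk5 and Vldlr lie on both sides of it.

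Transcript length moved with the difference over all genes. Genes were put in 10 groups of equal size by the transcript length that their reads and FPKM imply, and the median log2 ratio went from 0.40 in the shortest group to -0.56 in the longest, which holds Reln, Lrp8 and Vldlr. From each log2 ratio, the median of the length group minus the median of all genes was subtracted. This left -0.19 for Reln, -0.46 for Vldlr and -0.57 for Dab1. It left -1.46 for Lrp8, -1.22 for Cdk5, -3.22 for Cdk5r1 and 0.06 for Pafah1b1, whose direction turned. The part of length in these differences was not tested. The chromosomes that carry the 7 genes had medians within 0.05 of the median of all genes, from -0.05 for chromosome 5 to 0.04 for chromosome 19.

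Reads of some neighbors may be mixed with those of the 7 genes, because their spans overlap. Whether the counting used strand is not given in the sources used here, and overlap of exons was not checked. The RefSeq span of Cdk5 overlaps the end of Abcb8, which had 2714 and 1756 reads, and contains Asic3, which had 23 and 13. In GENCODE M21 the span of Cdk5 begins only at 24418241, beyond both of these neighbors. Lrp8os2, on the strand opposite Lrp8 and inside its span, had 208 reads and 279, few beside those of Lrp8. The RefSeq span of Gm35438 contains that of Vldlr, and Gm35438 had 5 and 39 reads, few beside those of Vldlr. The deposited table gives 1 value per gene, so splice forms of Lrp8 and Dab1 were not analysed here.

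Markers of neurons were lower as well, at their median by more than 6 of the 7 genes. All 14 genes of the neuron list had a log2 ratio below 0, with a median of -2.22, and 13 were lower past 2-fold. Their summed TPM was 3812 in the E14 teratoma and 656 in the E14-Sox2TA/WT teratoma, 5.81-fold lower. Tubb3, the neuronal beta-tubulin, went from 1722 to 170, and the intermediate filament gene Nefm, at 30.9 and 24.5, was the one that did not pass. Of the 7 genes only Cdk5r1 lay below the neuron median, by 1.21, and the other 6 lay above it by 0.25 for Lrp8 up to 1.98 for Pafah1b1. Cdk5r1 had a lower log2 ratio than all 14 neuron markers, and relative to Tubb3, the most reduced of them, it was 1.18-fold lower (1.10 to 1.27). The other 6 genes were higher relative to Tubb3, from 2.37-fold for Lrp8 to 8.58-fold for Pafah1b1. Lrp8 had a lower log2 ratio than 5 of the 14 and Cdk5 than 2, Nefl and Nefm. Reln, Dab1 and Vldlr had a lower one than Nefm only, and Pafah1b1 than none.

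Cell types that make reelin were looked at by their markers. Among 10 markers of Cajal-Retzius cells, 6 were covered by the rule, 5 were lower past 2-fold and 0 were higher, and their summed TPM was 164 and 67.4. Lhx5, a transcription factor of these cells, was at 27.8 and 3.44 and Calb2, encoding calretinin, at 38.6 and 15.7. Trp73, a defining marker, had a TPM of only 1.89 and 3.77, and Tbr1 of 0.409 and 0.0937. Of the other transcription factors of the list, Ebf3 was at 23.1 and 10.2 and Lhx1 at 21.0 and 5.55. Nhlh2 went the other way, at 17.5 in the E14 teratoma and 19.6 in the E14-Sox2TA/WT teratoma. Markers of GABAergic interneurons had a summed TPM of 232 and 52.8, with 5 of 5 genes covered lower past 2-fold. Gad1, the enzyme that makes GABA, was at 45.4 and 3.57 and Lhx6 at 21.0 and 0.730. The other 5 of the 10 did not reach a TPM of 10, and among them Htr3a was at 3.98 and 8.09, Lamp5 at 9.55 and 8.54, Sp8 at 2.53 and 2.36, Npy at 8.85 and 6.73, and Calb1 at 5.18 and 1.39. The granule cell list had a summed TPM of 139 and 49.7, with Zic1 at 75.8 and 13.0, but Atoh1 had 4 and 11 reads and Gabra6 had 0 in both libraries. The sum of the lymphatic endothelium list, a tissue outside the brain that makes reelin, was 70.1 and 58.4. Most of it came from Pdpn, at 57.0 and 47.1. Within the list Lyve1 was at 0.556 and 3.93, Flt4 at 1.60 and 1.93, and Ccl21a had 0 and 35 reads. Prox1 was at 10.9 and 3.99, so this list had no common direction.

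Cells in which the receptors and adaptors act were read in the same way. The cortical plate list had a summed TPM of 203 and 53.4 and a median log2 ratio of -1.47, with 5 of 5 genes covered lower past 2-fold. Cux1, a factor of upper-layer neurons that other tissues express as well, was at 93.8 and 21.7, but Neurod2, Neurod6 and Emx1, which mark cortical neurons more closely, were under a TPM of 4 in both libraries. The radial glia list had a summed TPM of 4547 and 1856 and a median of -1.57, with 4 of 7 genes covered lower past 2-fold and 0 higher. Fabp7 was at 2497 and 708, and Vim at 1530 and 914, whereas Prom1 was at 58.1 and 73.2 and Gli3 at 5.31 and 8.32. Vldlr is also made in muscle and fat. The striated muscle list had a summed TPM of 398 in E14, 1.92-fold above the other library, with 3 of 6 genes covered lower past 2-fold and 0 higher. Its largest share came from Mylpf, at 185 and 112, while the cardiac gene Myh6 was at 1.16 and 2.45 and Myl2 had 0 and 24 reads. The adipocyte list had a summed TPM of 27.6 and 79.4, nearly all of it from Fabp4, at 26.5 and 71.5. Adipoq had 0 and 83 reads. The part of these cell types in the differences of the 7 genes was not tested.

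**Figure D5:**
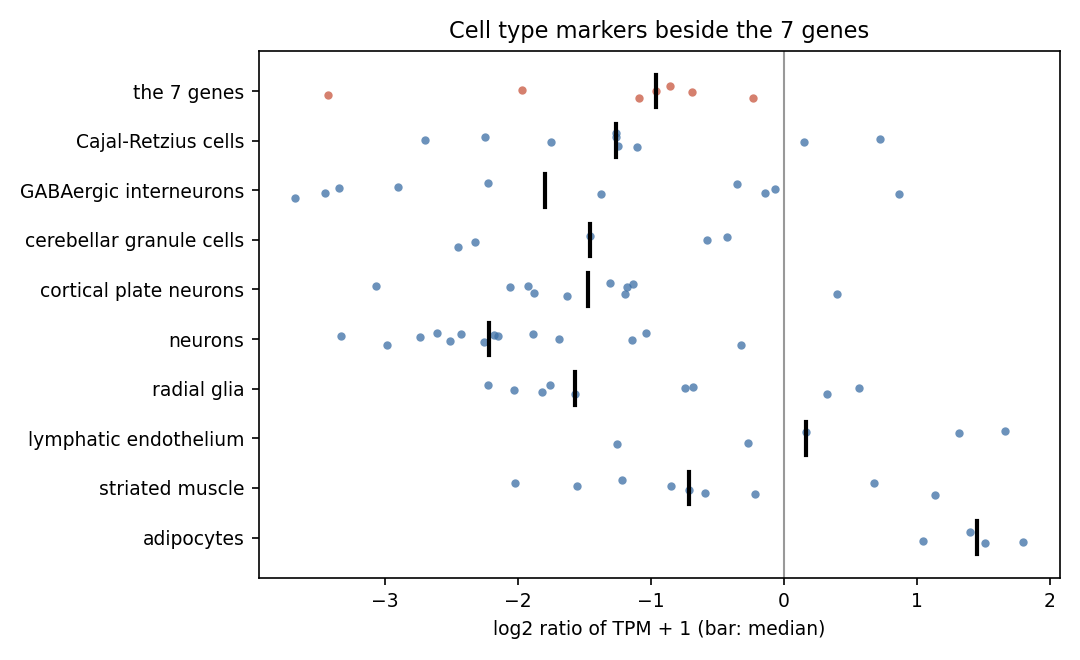
Difference of each marker gene between the libraries, as the log2 ratio of TPM + 1 of the E14-Sox2TA/WT library over the E14 library, for 9 cell type lists beside the 7 genes. Each point is 1 gene that reached a TPM of 1 in either library, and black bars are medians. The neuron list has the lowest median, at -2.22, and Cdk5r1, the leftmost of the 7 genes, lies at -3.42.

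Genes with a pattern most like each of the 7 were found by the distance in log2(TPM + 1) over the 2 libraries, among 10757 protein-coding genes that reached a TPM of 10 in either of them. For Cdk5r1 the nearest was Mmd2, at a TPM of 96.2 and 6.08, and 0 genes lay within 0.25 of it in both libraries. For Lrp8 they were Camk2n2, at 35.7 and 8.38, and Map9, at 35.9 and 8.28, among 57 genes within 0.25. The genes nearest to Dab1 were Adamts7 and Zfp763, to Vldlr Pcnx and Slc5a6, to Cdk5 Vps35l and Vhl, and to Pafah1b1 Tmem208 and Golm1. Within 0.25 there were 265 genes for Dab1, 224 for Vldlr, 145 for Cdk5 and 185 for Pafah1b1, so with 2 libraries these patterns were common. Reln was too low for a near match in this set, its nearest genes being Slc45a1 and Pcdhb19 at a distance of 1.62.

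Promoter sequences are shown for 1 listed start each of the ligand, a receptor that differed by about as much, and Pafah1b1, which was nearly level, as the 280 bases from 250 before the start to 30 after it. Of the 7 genes, 5 matched a RefSeq promoter table of GRCm38.p6. Capitals mark ACAATG and ACAAAG, which Sox factors can bind, the E-boxes CAGCTG and CAGATG, the GC box GGGCGG and the TATA box TATAAA, on either strand, and none of these motifs contains another.
Reln: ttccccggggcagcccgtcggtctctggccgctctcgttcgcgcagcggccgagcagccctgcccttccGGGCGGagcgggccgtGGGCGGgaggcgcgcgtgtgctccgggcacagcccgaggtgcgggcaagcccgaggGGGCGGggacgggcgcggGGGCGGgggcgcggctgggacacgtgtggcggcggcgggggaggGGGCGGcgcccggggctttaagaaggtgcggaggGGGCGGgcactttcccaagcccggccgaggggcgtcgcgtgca
Vldlr: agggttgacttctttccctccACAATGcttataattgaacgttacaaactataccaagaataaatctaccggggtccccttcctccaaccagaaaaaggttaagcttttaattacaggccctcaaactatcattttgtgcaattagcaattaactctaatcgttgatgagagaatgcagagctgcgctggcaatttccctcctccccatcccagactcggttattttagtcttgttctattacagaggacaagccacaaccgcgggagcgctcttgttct
Pafah1b1: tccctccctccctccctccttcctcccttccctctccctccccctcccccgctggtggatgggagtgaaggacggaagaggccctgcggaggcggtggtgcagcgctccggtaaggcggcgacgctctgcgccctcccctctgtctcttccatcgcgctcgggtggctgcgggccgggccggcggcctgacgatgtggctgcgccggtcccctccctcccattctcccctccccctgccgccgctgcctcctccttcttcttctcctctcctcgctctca
These lie at chr5:22344676-22344955 on the minus strand, chr19:27216234-27216513 on the plus strand and chr11:74723829-74724108 on the minus strand. The Reln window is 80.7% G and C and holds 47 CpG within 300 bases, beside a median of 7 over all promoters. It holds the GC box, as 35.7% of all 32851 promoter windows of 300 bases do. The first Vldlr window, with 43.0% G and C and 8 CpG, holds ACAATG, found in 12.6% of all windows, and the window of its other listed start holds CAGCTG, found in 16.3%, and GGGCGG. The Pafah1b1 window, with 71.3% G and C, holds none of the 6 motifs. Lrp8 has 3 listed starts, of which the first holds ACAATG, the next CAGATG, found in 17.2% of all windows, and the last CAGATG and ACAAAG, found in 18.7%. Dab1 has GGGCGG at 1 of its 2 listed starts. TATAAA, found in 13.6% of all windows, is in 0 of the 9 windows of these genes. A match is a description of letters and not a bound site.

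Facts of the whole comparison bear on these values as follows. Reads on genes numbered 50529171 for E14 and 49030281 for E14-Sox2TA/WT. Sox2, the mutated gene, had a TPM of 246 and 130, and gene-level values do not separate the T258A allele from the wild-type allele. Counting intervals cover counting error only, not the spread between tumors, pieces of a tumor or clones.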

How the data were processed

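RNA-seq of polyA RNA covered 1 E14 and 1 E14-Sox2TA/WT teratoma library. The authors deposited raw read counts per gene, FPKM (scaled for transcript length and depth) and TPM (FPKM rescaled to a fixed sum) on mm10. The submitters' processing notes name bcl2fastq 2.20.0, Trimmomatic, HISAT2 2.1.0 and StringTie 2.1.3b, and list hg19 beside mm10. Of 45777 gene IDs, 45679 matched a RefSeq table of GRCm38.p6, the same build.

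Ratios of TPM were computed with no p-value. The call was more than 2-fold with TPM reaching 10 in either library. List medians used log2(TPM + 1) of genes reaching a TPM of 1 in either. Intervals are 95% Clopper-Pearson intervals of read counts, and of odds ratios (normal approximation) for within-library ratios. Named genes were the 7 genes, in each list the 3 of highest TPM and the 2 of largest change, and the markers. The members and lists were chosen with earlier results of these data known. Scripts were tested on simulated data. TMM factors came from edgeR 4.0.16 in R 4.3.3, and the rest from Python 3.11.15 with scipy 1.17.1. Proteins are not printed, and some genes are not reported here.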

Additional observations from a re-analysis of the deposited data

How the results depend on the processing

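No paired analysis was possible because each group has 1 library, and none could be left out. Centering within length groups was chosen after seeing the data. Of the 7 genes, 4 were lower past 2-fold. This became 2 with FPKM, 2 with library totals and 2 with a fold above 3, Lrp8 and Cdk5r1 each time. The same 2 passed where the whole counting interval of the reads had to lie beyond 2-fold, a setting not on the TPM scale. By TPM the interval of Cdk5, 2.04 to 2.30, also lay beyond 2-fold. The count became 1 (Cdk5) where TPM had to reach 10 in both libraries, which leaves out genes low in 1 library. The other settings gave 3 to 5, and 0 genes were higher under any setting.

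Over all genes, 2167 were lower and 1253 higher of the 11578 covered. From a TPM of 1 these counts became 3508 and 3585 of 18558 genes, and without a filter 6015 and 9156 of 45777. Where both libraries had to reach 10 they were 1122 and 479, of a number of genes that is not given here. The counts became 3742 and 2109 at a fold above 1.5, and 1015 and 663 above 3. Where the whole counting interval had to lie beyond 2-fold, 1447 were lower and 1333 higher. The share of calls that were lower was 63.4%, and 51.1% with FPKM, 50.9% with library totals, 59.3% with TMM, 59.0% with median-of-ratios factors and 58.0% centered on the median of all genes.

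Of 63 alternative values of single genes, 29 stayed within counting error, 33 moved and 1 reversed, Pafah1b1 at 0.058 (log2) with centering within length groups. Cdk5r1 ranged from -3.56 to -2.55 and Lrp8 from -2.08 to -1.31. The ends of both ranges came from adding 0.1 or 10 to each TPM in place of 1. A larger added amount shrinks a log2 ratio by construction. Without these settings, Cdk5r1 ranged from -3.43 with TMM to -3.09 with FPKM. Lrp8 then ranged from -1.98 with TMM to -1.46 within length groups. List medians turned sign for the PTB adaptors (-0.38 to 0.12 within length groups) and the proteases and ligands (0.08 to -0.22 from a TPM of 10 and -0.51 where both libraries had to reach 10), and that of the LDL receptor family went from -0.46 to -0.03 within length groups. The other 5 kept their sign. Depth limits Reln most, with 403 reads in the E14-Sox2TA/WT library. The cause of the other shifts was not tested.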
